A study of Homo sapiens with 6 samples.

Results

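Small nucleolar RNA (snoRNA) host genes were followed in TCam-2, a long-established line grown from a human seminoma of the testis. The set was chosen by name: GAS5, ZFAS1, DANCR and the SNHG series, 31 symbols in all. Of these, 30 had a row among the 62700 genes of the gene table, and SNHG33 was matched to none. The libraries were polyadenylated RNA from 3 groups with 2 libraries each. WT cells were non-transduced, GFP cells were transduced with GFP_FLAG, and RBMXL3 cells were transduced with RBMXL3_FLAG. WT and GFP were both described by the study as negative controls. RBMXL3 is an RBMX-like protein with an RNA recognition motif. The labels do not name a promoter for the transgenes or say that the duplicates were separate cultures, so a p-value measures only the spread between these libraries.

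A snoRNA host gene is transcribed like a messenger RNA, and its snoRNAs are cut from the introns after splicing. Box C/D snoRNAs guide 2'-O-methylation of ribosomal RNA, and box H/ACA snoRNAs guide its pseudouridylation. The joined exons of many hosts carry only short reading frames, are bound by ribosomes and are degraded by nonsense-mediated decay (NMD). Several hosts, GAS5 among them, begin with a terminal oligopyrimidine (TOP) tract, the start that ribosomal protein genes share.

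RefSeq places a snoRNA inside 29 of the 31 genes. Box C/D snoRNAs alone lie in 13 of them, box H/ACA snoRNAs alone in 10, both kinds in 2 and a small Cajal body RNA alone in 4. SNHG14 holds 83 snoRNAs, and GAS5 holds 11. The snoRNAs of the 4 hosts called lower in RBMXL3 than in GFP cells by gene reads are listed here, since those hosts carry them. For ZFAS1 the summed transcript values, given below, went the other way. Capitals mark letters that a search found: TGATGA (box C) within the first 20 bases and CTGA (box D) starting in the last 15 bases of the box C/D RNAs, and ACA with at most 4 bases after it in the box H/ACA RNAs. The same letters are present in 66.7%, 91.3% and 89.9% of all SNORD or SNORA transcripts of GENCODE 29, in that order. These are GENCODE 29 sequences on GRCh38, 5' to 3' on the host's strand.
SNORA26 (in DANCR, chr4:52713249-52713370, plus strand): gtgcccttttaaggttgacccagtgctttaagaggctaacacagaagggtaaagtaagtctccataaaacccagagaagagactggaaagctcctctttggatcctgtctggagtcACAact
SNORD12C (in ZFAS1, chr20:49278940-49279028, plus strand): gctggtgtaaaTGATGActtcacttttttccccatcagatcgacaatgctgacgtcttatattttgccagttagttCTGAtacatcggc
SNORD12B (in ZFAS1, chr20:49280319-49280409, plus strand): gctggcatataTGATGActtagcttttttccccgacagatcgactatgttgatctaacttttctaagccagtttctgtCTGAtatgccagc
SNORD12 (in ZFAS1, chr20:49280683-49280772, plus strand): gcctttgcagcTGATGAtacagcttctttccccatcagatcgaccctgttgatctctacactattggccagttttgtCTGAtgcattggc
SNORA24 (in SNHG8, chr4:118279190-118279320, plus strand): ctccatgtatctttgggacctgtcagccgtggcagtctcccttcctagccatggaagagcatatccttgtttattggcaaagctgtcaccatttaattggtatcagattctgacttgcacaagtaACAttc
SNORD60 (in SNHG19, chr16:2155023-2155105, minus strand): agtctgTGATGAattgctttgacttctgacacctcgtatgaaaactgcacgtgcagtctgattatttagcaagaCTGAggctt
The libraries held few reads in the rows of snoRNAs. Some host transcripts are annotated with a retained intron, so the host signal is not from fully spliced RNA alone. Of 134 snoRNA rows that lie inside the hosts, 123 had 0 reads in all 6 libraries and 131 had at most 10 reads in every library. By the annotation used for these rows, 0 of them lay in GAS5. Several snoRNAs overlap annotated host exons, SNORA24 over 14.2% of the exon bases of SNHG8. How reads were counted there is not given, so a row of 0 does not show that a snoRNA was absent.

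Reads per library ranged from 17685680 to 29318007, as recovered from the deposited values. RBMXL3 itself had 84 and 68 reads in the RBMXL3 libraries and 0 in the other 4, where 0 allows up to 3 reads. All 10 seminoma markers passed the filter, POU5F1 and TFAP2C among the highest. Of these 10, RBMXL3 cells had 3 called higher (POU5F1, NANOS3, PRAME) and 3 lower (KIT, PRDM1, LIN28A) against WT. Against GFP 1 was called higher and 2 lower. That is 60% and 30% called, beside 29.9% and 20.9% of all genes. Between the controls, PRAME was called higher (0.54, limma adjusted p = 0.0166) and KIT lower (-0.41, 0.0407) in GFP than in WT cells. That is 20% of these markers, beside 3.67% of all genes. PRAME differed by -0.11 between RBMXL3 and GFP cells and was not called there. The 3 immune markers summed to at most 1.06 normalised reads in any library. The fibroblast list rested on COL1A2 at 8093 to 12709 normalised reads, with DCN at 1.69 or less. All 3 of its tested genes were called higher against WT in both transduced groups, and the list summed to 8380 and 9576 in WT cells, 11755 and 13225 in GFP cells and 12156 and 12996 in RBMXL3 cells. COL1A2 carries that sum. LUM, a secreted matrix proteoglycan on the list, was at 79.6 and 65.4 in WT cells, 131 and 179 in GFP cells and 425 and 421 in RBMXL3 cells. It rose by 1.33 against GFP (limma adjusted p = 0.000411) and by 2.22 against WT (3.72e-06). The 3 Sertoli markers summed to 168 to 201 in WT cells, 169 to 226 in GFP cells and 282 to 305 in RBMXL3 cells, and the 3 embryonal carcinoma markers to 2007 to 2101, 2349 to 2667 and 2617 to 2780 in that order. FSHR adds at most 2.14 to the Sertoli sum. DNMT3B, at 1943 to 2623 by library, carries the embryonal carcinoma sum. SOX2 had group means of 23.2 (WT), 13.7 (GFP) and 33.2 (RBMXL3), an order unlike that of the sum. Its WT libraries were far apart, at 31.3 and 15.1. GDF3 had means of 59.5, 86.5 and 112 for the same groups, the order of the sum. The part of these markers in the host results was not tested. In bulk RNA, less RNA per cell and fewer cells of a kind cannot be told apart.

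Per length, the hosts spanned a wide range. Levels were compared in TPM, a measure scaled for transcript length and library size, summed over the transcripts of a gene. The highest in WT cells was SNHG6 at 167 ± 36.1 TPM (SD, n = 2), followed by ZFAS1 at 141 ± 27.0, SNHG29 at 132 ± 16.5, SNHG8 at 115 ± 27.1, SNHG32 at 102 ± 12.9, DANCR at 84.3 ± 17.4, SNHG19 at 64.2 ± 16.8 and GAS5 at 60.6 ± 16.2. Each of these neighbours in the order overlapped over its libraries, so the order among them is not fixed by these data. In RBMXL3 cells ZFAS1 was the highest, at 264 ± 11.7 TPM, above SNHG6 at 171 ± 1.28. Below GAS5 the mean levels in WT cells ran from 41.7 TPM for SNHG3 to 0 for SNHG28. SNHG28 had 0 reads in every library.

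**Figure D1:**
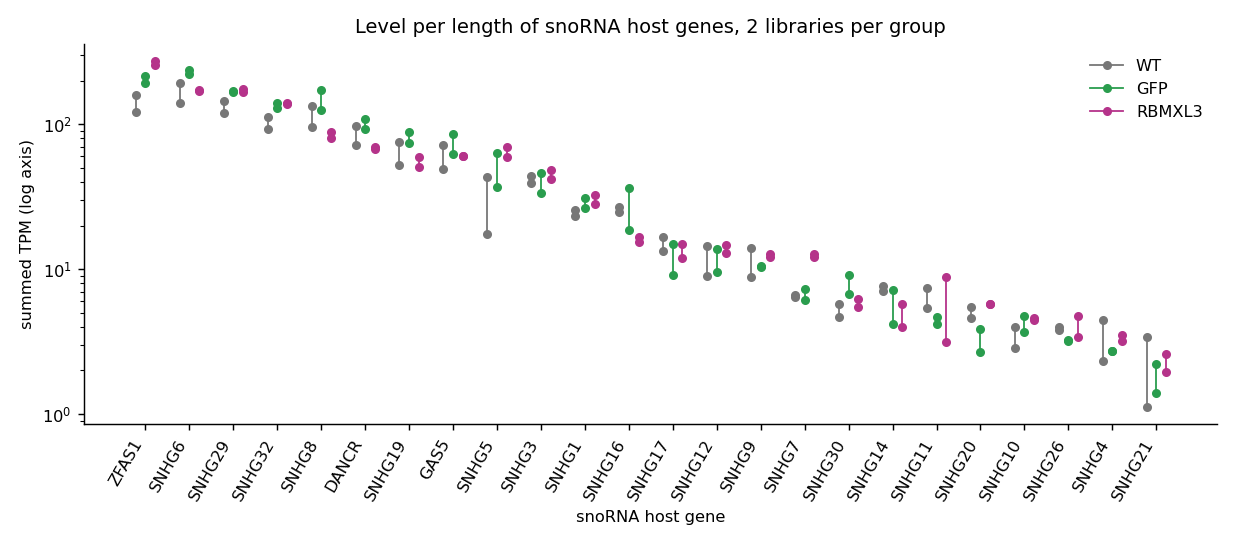
Summed TPM (log axis) of the 24 hosts with a TPM above 0 in every library, ordered by their mean; each point is a library, and a line joins the 2 libraries of a group. ZFAS1 stands highest in RBMXL3 cells, and SNHG8, DANCR and SNHG19 have their 2 RBMXL3 libraries below both GFP libraries.

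The gene table was used for the tests, with 14292 genes and 23 hosts above the filter on low values. SNHG15, SNHG18, SNHG21, SNHG22, SNHG25, SNHG27 and SNHG28 did not pass it, with 0 to 42 reads per library. A host was called when the adjusted p of limma's moderated test, with Benjamini-Hochberg adjustment over all genes tested, was under 0.05. Log2 changes are on the scale log2(value + 1) and understate the change of low genes. Both RBMXL3 comparisons share the RBMXL3 libraries, and the comparisons against WT share the WT libraries.

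DANCR was the 1 host lower in RBMXL3 cells than in both controls. It is a non-coding RNA named for blocking differentiation, encoded on GRCh38 chr4:52712404-52720351, plus strand, with SNORA26 in its intron. Its normalised read count was 1742 and 1711 in the WT libraries, 1860 and 1937 in the GFP libraries, and 1007 and 1066 in the RBMXL3 libraries. Both RBMXL3 libraries lay far below all 4 control libraries. DANCR fell by 0.86 on the log2 scale against GFP (SE 0.10, adjusted p = 0.000281) and by 0.72 against WT (SE 0.10, adjusted p = 0.000293). The call held without any single library, with adjusted p from 0.000112 to 0.00489 against GFP and from 3.51e-05 to 0.0118 against WT. Of all genes tested, 6.86% were called lower against both controls, 6.88% higher and 13.7% in either direction. DANCR alone is 1 host of 23, and 0 hosts were called higher against both. In summed TPM the DANCR values were 72.0 and 96.6 in WT cells, 109 and 92.0 in GFP cells and 69.5 and 67.3 in RBMXL3 cells. The TPM change of -0.55 against GFP (adjusted p = 0.0784) and of -0.28 against WT (adjusted p = 0.264) did not pass.

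Against GFP, 4 hosts of 23 were called, all lower. The background was 20.9% of genes called, 10.4% lower and 10.5% higher, against 17.4% of the hosts. The median log2 change was -0.07 over the tested hosts and 0.00 over all genes. The host median was -0.16 without GFP replicate 1 and -0.20 with a filter of a mean of at least 5, and in summed TPM it was 0.10 over the hosts and 0.13 over all genes. Besides DANCR the called hosts were ZFAS1, SNHG8 and SNHG19. ZFAS1, a transcript that starts beside ZNFX1 on the other strand, had 277 and 357 normalised reads in WT cells, 428 and 504 in GFP cells and 323 and 281 in RBMXL3 cells. SNHG8 had 673 and 887 in WT cells, 1033 and 1178 in GFP cells and 778 and 725 in RBMXL3 cells. SNHG19 had 168 and 267 in WT cells, 330 and 338 in GFP cells and 200 and 166 in RBMXL3 cells. In all 3 the GFP libraries were high, and the RBMXL3 libraries overlapped with the WT libraries.

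The decreases against GFP were 0.80 on the log2 scale for SNHG19 (SE 0.18, adjusted p = 0.00935), 0.59 for ZFAS1 (SE 0.15, adjusted p = 0.0153) and 0.54 for SNHG8 (SE 0.13, adjusted p = 0.0140). The changes against WT were -0.20, -0.06 and -0.04, with adjusted p of 0.430, 0.796 and 0.844. Without RBMXL3 replicate 2 these calls were lost, at adjusted p of 0.0823 for SNHG19, 0.159 for ZFAS1 and 0.128 for SNHG8; SNHG8 was also lost without RBMXL3 replicate 1 (0.0611). Over all alternatives the adjusted p ran from 0.00287 to 0.114 for SNHG19, from 0.00947 to 0.159 for ZFAS1 and from 0.00665 to 0.128 for SNHG8.

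**Figure D2:**
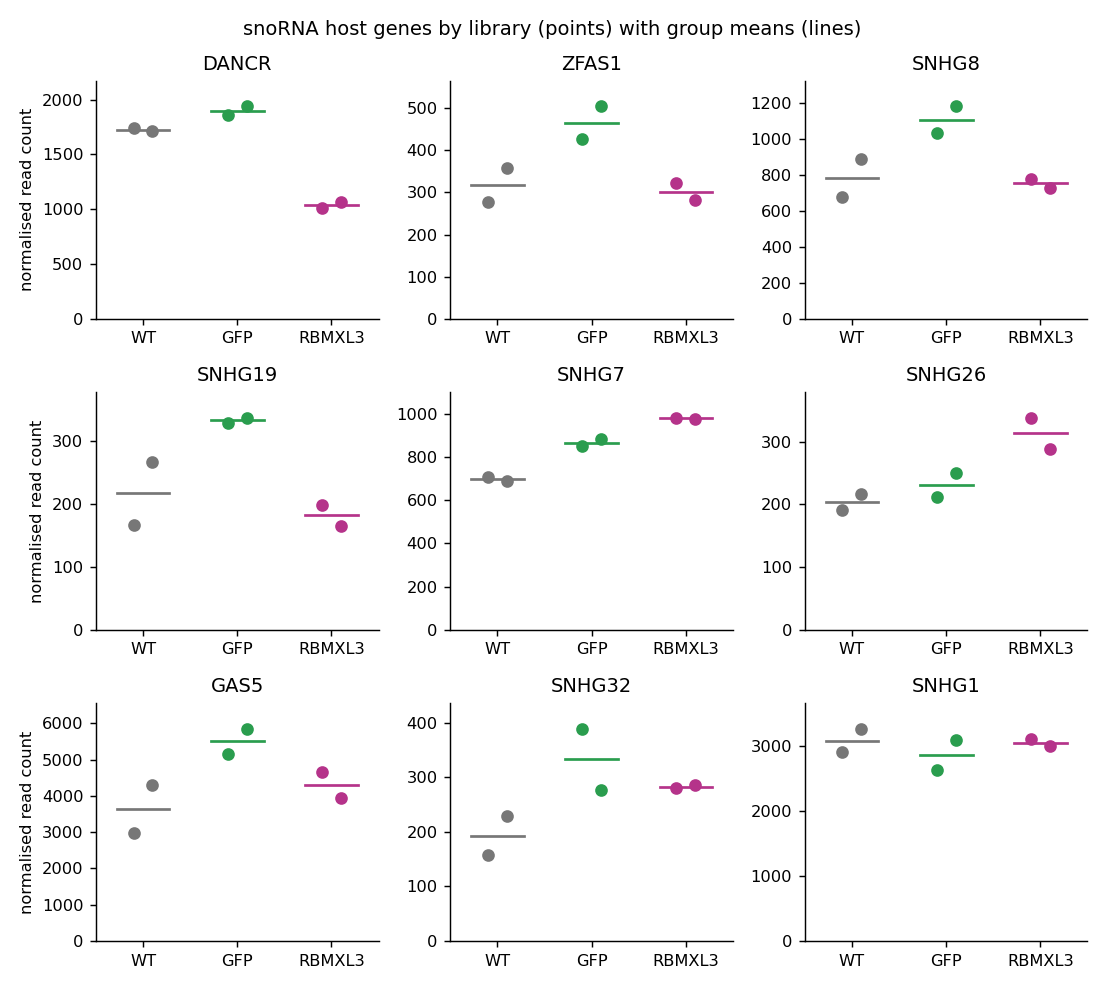
Normalised read count of 9 hosts, 1 point per library and a line at the group mean. DANCR is low in RBMXL3 cells against both controls, while ZFAS1, SNHG8 and SNHG19 are high in GFP cells and overlap between WT and RBMXL3 cells.

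Against WT, 4 hosts of 23 were called, DANCR lower and SNHG7, SNHG26 and SNHG32 higher. The background was 29.9% of genes called, 14.6% higher and 15.3% lower, against 17.4% of the hosts. The median log2 change was 0.04 over the hosts and -0.01 over all genes. The host median was 0.15 without WT replicate 2, 0.08 without RBMXL3 replicate 2 and 0.00 without WT replicate 1 or with a mean of at least 5. SNHG7, host of SNORA17A and SNORA17B, had 706 and 687 normalised reads in WT cells, 849 and 881 in GFP cells and 981 and 973 in RBMXL3 cells. The 3 groups did not overlap, with RBMXL3 cells the highest. SNHG7 rose by 0.47 against WT (SE 0.10, adjusted p = 0.00461), and its difference of 0.17 against GFP did not pass (adjusted p = 0.252). In summed TPM it rose against both, by 0.80 against GFP (adjusted p = 0.0261) and by 0.83 against WT (adjusted p = 0.0164). Its exons overlap those of DIPK1B on the other strand over 25.2% of their bases, and whether the counting used strand is not given in the sources used here.

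SNHG26 had 191 and 217 normalised reads in WT cells, 213 and 250 in GFP cells and 339 and 289 in RBMXL3 cells. Both RBMXL3 libraries were above all control libraries. It rose by 0.57 against WT (SE 0.14, adjusted p = 0.0109), and its difference of 0.40 against GFP did not pass (adjusted p = 0.0615). SNHG32, which carries SNORD48 and SNORD52, had 157 and 229 in WT cells, 389 and 278 in GFP cells and 281 and 286 in RBMXL3 cells, so both transduced groups were above WT. It rose by 0.52 against WT (SE 0.18, adjusted p = 0.0448), and the call was lost without WT replicate 1 (limma adjusted p = 0.377), RBMXL3 replicate 1 (0.131) or RBMXL3 replicate 2 (0.158). Over its alternatives that p ran from 0.0153 to 0.377. The SNHG26 call was lost without RBMXL3 replicate 1 (0.138) or WT replicate 1 (0.105), and the SNHG7 call without RBMXL3 replicate 1 (0.0689) or replicate 2 (0.0681). Over their alternatives p ran from 0.00378 to 0.899 for SNHG26 and from 0.000693 to 0.0689 for SNHG7. The highest for SNHG26 was in summed TPM, where its change was 0.04. Against GFP, SNHG26 was called without GFP replicate 2 (0.0268).

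Between the controls, GAS5 and SNHG32 were called higher in GFP than in WT cells, 2 hosts of 23. The background was 3.67% of genes called, 1.76% higher and 1.91% lower. GAS5, a growth-arrest transcript whose spliced form is a classic NMD target, had 2979 and 4292 normalised reads in WT cells, 5150 and 5851 in GFP cells and 4648 and 3955 in RBMXL3 cells. WT replicate 1 was the lowest library and both GFP libraries were the highest. GAS5 rose by 0.61 in GFP against WT (SE 0.15, adjusted p = 0.0438), and SNHG32 by 0.72 (SE 0.18, adjusted p = 0.0476). Of the 23 hosts 19 were higher in GFP than in WT cells and 4 were lower, where 51.3% of all genes were lower. The median log2 change was 0.16 over the hosts and -0.01 over all genes. The host median was 0.09 without GFP replicate 2, 0.12 without WT replicate 1, 0.28 without WT replicate 2 and 0.30 without GFP replicate 1. Both calls were lost without WT replicate 1 (adjusted p = 0.346 for GAS5 and 0.355 for SNHG32), WT replicate 2 (0.0699 and 0.0871), RBMXL3 replicate 1 (0.0523 and 0.0586) or RBMXL3 replicate 2 (0.0510 and 0.0578), and under edgeR's quasi-likelihood test (0.0545 and 0.0517). Over all alternatives the adjusted p ran from 0.00778 to 0.506 for GAS5 and from 0.00685 to 0.355 for SNHG32. The SNHG32 call was lost also without GFP replicate 1 (0.123). Without that library ZFAS1, SNHG8 and SNHG29 were called higher in GFP than in WT cells, with log2 changes of 0.64, 0.59 and 0.44. SNHG29 and SNHG3 were then called lower in RBMXL3 than in GFP cells, at -0.43 and -0.38.

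SNHG1, which holds 8 box C/D snoRNAs and whose spliced RNA has no long reading frame, was not called in any comparison. Its normalised read count was 2898 and 3259 in WT cells, 2625 and 3082 in GFP cells and 3099 and 2993 in RBMXL3 cells, so the 3 groups overlapped. Its change was 0.10 against GFP (SE 0.11, adjusted p = 0.554) and -0.01 against WT (SE 0.11, adjusted p = 0.940). The 19 hosts not called against GFP differed by 0.00 to 0.40 in size on the log2 scale, with adjusted p from 0.0615 to 0.993. The 19 not called against WT differed by 0.01 to 0.32, with adjusted p from 0.128 to 0.955. GAS5 was -0.35 against GFP (SE 0.15, adjusted p = 0.110) and 0.26 against WT (SE 0.15, adjusted p = 0.205), and against WT it was called without WT replicate 2 (0.0338).

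**Figure D3:**
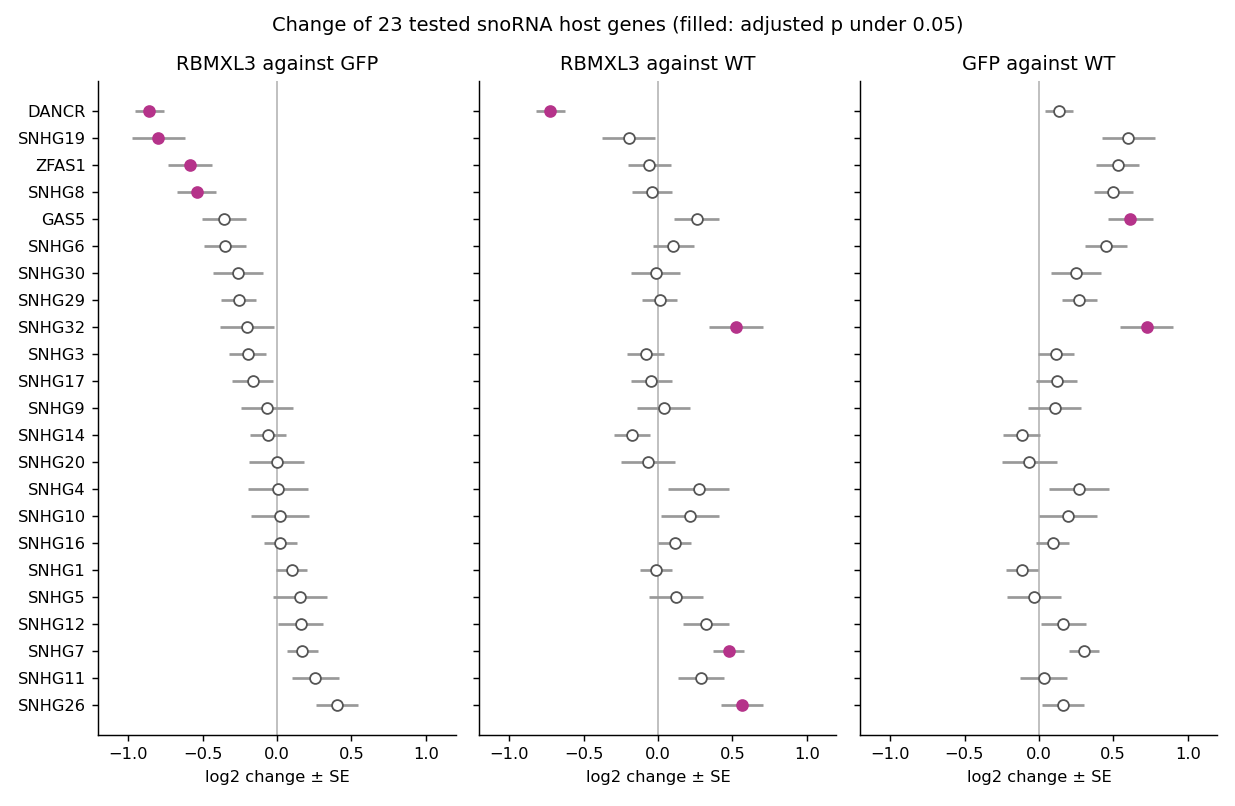
Log2 change with its SE for the 23 tested hosts in the 3 comparisons, filled where the adjusted p was under 0.05. The 4 filled points lie left of 0 against GFP; against WT, DANCR lies left and SNHG7, SNHG26 and SNHG32 lie right; between the controls GAS5 and SNHG32 lie right.

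The replicate libraries of the controls differed in these genes. In WT cells 18 of the 23 hosts were lower in replicate 1 than in replicate 2, with a median log2 difference of -0.24 against 0.02 over all genes. In GFP cells it was again 18 of 23, with a median of -0.21 against 0.00. In RBMXL3 cells 4 of 23 were lower in replicate 1, with a median of 0.07. Centred on each gene's mean, the hosts' median was lowest in WT replicate 1, at -0.25, and highest in GFP replicate 2, at 0.19. It lay from -0.01 to 0.04 in the remaining 4, while that of all genes stayed between -0.01 and 0.01. These differences between replicates are of the size of several of the group differences above, and what sets them was not tested.

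The gene table and the TPM table did not give the same picture for every host. SNHG5 had 18 to 29 reads per library in the gene table, yet 17.6 to 70.1 TPM. Over 12623 genes the median was 16.0 normalised reads per TPM and kilobase of transcript, with the 5th and 95th percentiles at 8.38 and 33.0. SNHG5 stood at 0.799, ZFAS1 at 2.31, SNHG32 at 2.53 and SNHG9 at 8.31, 4 hosts below the 5th percentile. Above the 95th were 9 hosts, SNHG16 at 147, SNHG1 at 129, SNHG7 at 106, GAS5 at 89.3, SNHG26 at 84.6, SNHG17 at 79.0, SNHG14 at 78.0, SNHG11 at 43.9 and SNHG29 at 40.3. DANCR at 20.4 and SNHG8 at 19.97 lay within these bounds, as did SNHG19 at 10.7.

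ZFAS1 had opposite signs in the tables. Its summed TPM was 122 and 160 in WT cells, 192 and 214 in GFP cells and 272 and 256 in RBMXL3 cells. The RBMXL3 libraries were the highest in TPM, whereas their gene reads were below those of GFP cells. In TPM, ZFAS1 was 0.38 against GFP (SE 0.14, adjusted p = 0.139) and rose by 0.91 against WT (SE 0.14, adjusted p = 0.0157). In TPM the median change of all genes was 0.13 against GFP and 0.03 against WT, and ZFAS1 against GFP lay above that median. The exons of ZFAS1 overlap ZNFX1 on the other strand over 11.1% of their bases. With TPM, 1 host was called against GFP (SNHG7; background 6.93%) and 3 against WT (ZFAS1, SNHG7 and SNHG32; background 11.5%).

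**Figure D4:**
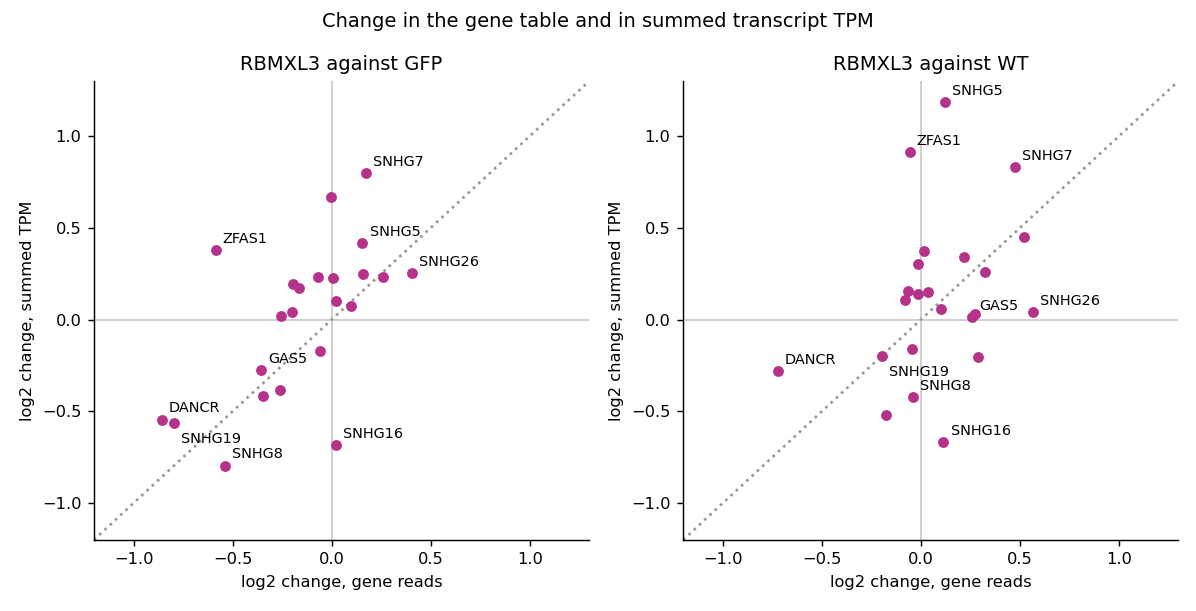
Log2 change of the 23 hosts in the gene table (horizontal) and in summed TPM (vertical), with the line of equal change dotted. DANCR, SNHG8 and SNHG19 lie below 0 on both axes against GFP, and ZFAS1 lies at -0.59 on the horizontal axis and 0.38 on the vertical.

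Transcript usage could be tested in 18 hosts, those with at least 2 transcripts of 1 TPM or more in at least 2 libraries. Limma's diffSplice called ZFAS1 against GFP, 1 host of 18 where 12% of 8882 genes were called. Against WT it called ZFAS1, SNHG16 and SNHG20, 3 of 18 where again 12% of genes were called. Between the controls diffSplice called 0 hosts, with a background of 1.72% and 1 host at an unadjusted Simes p under 0.05. When transcripts were tested as shares of their gene, SNHG20 alone was called (adjusted p = 0.0247 against WT and 0.0416 between the controls). DANCR and SNHG19 had fewer than 2 such transcripts.

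The main ZFAS1 transcripts differ in their starts and in 2 internal exons of the 5-exon form ZFAS1-204. ZFAS1-201 shares the start of ZFAS1-204 and lacks exon 4. ZFAS1-205 and ZFAS1-203 begin upstream of it and lack exon 4, and ZFAS1-203 lacks exon 3 as well. The 2 exons are shown because the main forms differ by them; the called forms ZFAS1-201 and ZFAS1-203 both lack exon 4 and differ by exon 3 and the start. The sequences are from GENCODE 29 on GRCh38, plus strand.
ZFAS1 exon 3 (chr20:49280485-49280570): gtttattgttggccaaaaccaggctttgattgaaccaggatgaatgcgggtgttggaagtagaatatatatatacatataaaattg
ZFAS1 exon 4 (chr20:49280903-49280964): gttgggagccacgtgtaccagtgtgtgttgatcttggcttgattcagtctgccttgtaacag
SNORD12, printed above, lies between these exons. ZFAS1-201 was at 4.05 and 0 TPM in WT cells, 0 and 3.11 in GFP cells and 29.1 and 15.4 in RBMXL3 cells. Both RBMXL3 libraries were above all 4 control libraries. Relative to the other ZFAS1 transcripts it rose by 2.94 on the log2 scale against GFP (SE 0.61, adjusted p = 0.00441) and by 2.49 against WT (SE 0.61, adjusted p = 0.0172). ZFAS1-203 was at 22.2 and 32.3 TPM in WT cells, 47.4 and 39.8 in GFP cells and 23.1 and 21.98 in RBMXL3 cells. Its share of ZFAS1 TPM was 19.2% ± 1.39 in WT cells, 21.7% ± 4.31 in GFP cells and 8.55% ± 0.0735 in RBMXL3 cells (SD, n = 2). It fell by 2.16 relative to the others against GFP (SE 0.61, adjusted p = 0.0420), while -1.64 against WT did not pass (adjusted p = 0.162). The leading forms ZFAS1-204 and ZFAS1-205 reached 108 ± 3.43 and 90.4 ± 5.42 TPM in RBMXL3 cells. The adjusted Simes p for ZFAS1 was 0.00737 against GFP and 0.0285 against WT. Over the alternatives it ran from 0.00357 to 0.324 against GFP and from 0.00685 to 0.540 against WT, and it passed in neither comparison without either RBMXL3 library. The call against GFP was lost without GFP replicate 1 (0.199) and that against WT without WT replicate 2 (0.513).

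SNHG16-207, a 5-exon form of 1947 bases, was at 15.6 and 11.5 TPM in WT and 0 and 19.1 in GFP cells, and was listed at 0 in both RBMXL3 libraries. The shorter SNHG16-204 was at 8.26 and 11.5 in WT cells, 15.8 and 14.0 in GFP cells and 12.4 and 10.5 in RBMXL3 cells. One GFP library thus looked like the RBMXL3 libraries and the other like WT. SNHG16 was called by limma's diffSplice against WT (adjusted p = 0.0265), and against GFP its value was 0.336. SNHG20-216 was at 1.69 and 1.45 TPM in WT and listed at 0 in the other 4 libraries, while SNHG20-202 was at 1.66 and 1.08 in WT cells, 1.55 and 2.44 in GFP cells and 2.33 and 2.64 in RBMXL3 cells. Between the controls SNHG20 did not pass in diffSplice (adjusted p = 0.0578). The call for SNHG20 was against WT (0.00853), with 0.723 against GFP. Neither call held without RBMXL3 replicate 1 or replicate 2, where SNHG16 was at 0.283 and 0.248 and SNHG20 at 0.0891 and 0.102. The SNHG16 call was lost also without WT replicate 1 (0.239) or replicate 2 (0.191), and SNHG20 could not be tested without a WT library. Without GFP replicate 1, SNHG16 was called against GFP as well (0.000227), and without GFP replicate 2 it was called between the controls (0.00188).

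**Figure D5:**
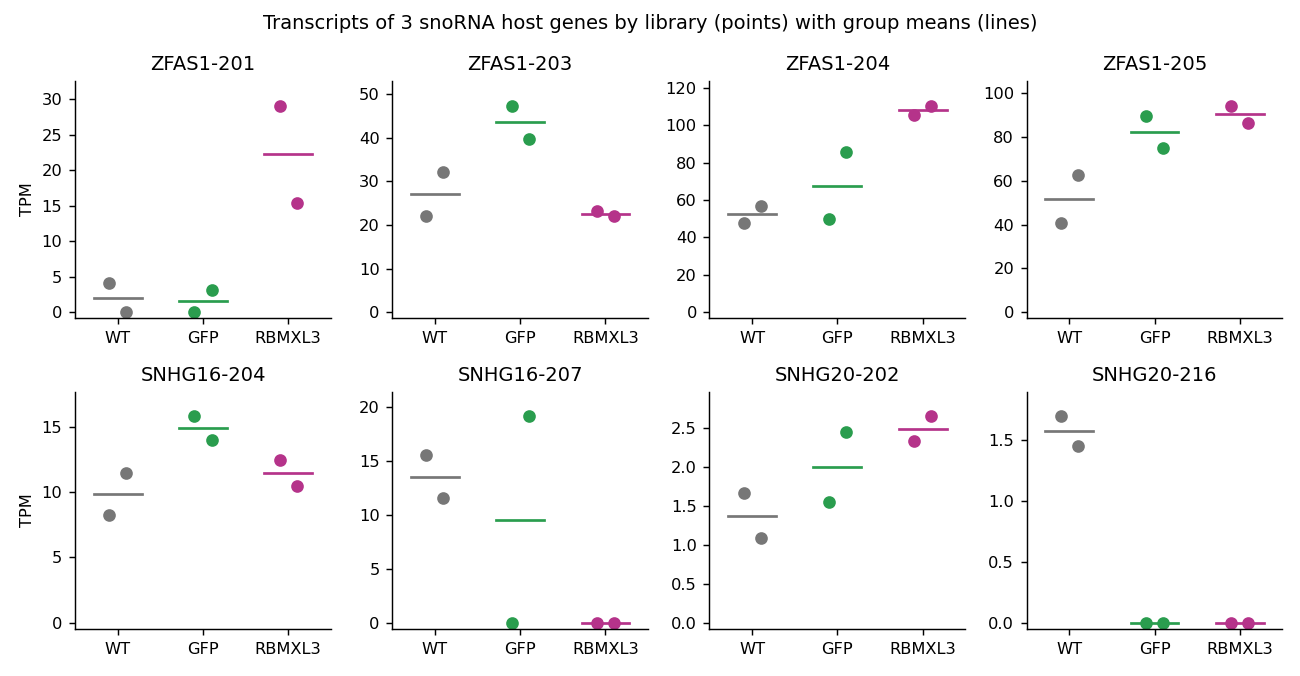
TPM of 8 transcripts of ZFAS1, SNHG16 and SNHG20, 1 point per library and a line at the group mean. ZFAS1-201 is high in the 2 RBMXL3 libraries, ZFAS1-203 is high in GFP cells, SNHG16-207 is at 0 in 1 GFP and both RBMXL3 libraries, and SNHG20-216 is above 0 in WT cells alone.

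In 11 hosts the most abundant transcript by mean TPM was not the same in the 3 groups. These were ZFAS1, GAS5, SNHG1, SNHG16, SNHG20, SNHG32 and 5 low or uneven hosts, SNHG15, SNHG18, SNHG21, SNHG25 and SNHG27. For GAS5 it was GAS5-213 in both controls and GAS5-201 in RBMXL3 cells, both annotated as retained-intron forms. Forms so annotated made up 82.0 to 88.8% of GAS5 TPM by library. GAS5-213 was at 13.2 and 15.5 TPM in WT cells, 15.04 and 15.1 in GFP cells and 7.90 and 11.6 in RBMXL3 cells. GAS5-201 was at 4.67 and 20.5 in WT cells, 10.7 and 9.62 in GFP cells and 16.3 and 15.7 in RBMXL3 cells, so the 2 WT libraries lay on either side of the other 4. For SNHG1 it was SNHG1-205 in WT and RBMXL3 cells, at 8.49 to 13.0 TPM over all libraries, and SNHG1-210 in GFP cells, at 0 to 17.3. For SNHG32 it was C6orf48-205 in WT and C6orf48-203 in the other groups, both between 29.2 and 55.7 TPM. None of GAS5, SNHG1 and SNHG32 had a usage call. For SNHG21 the leading form was SNHG21-205 in WT and RBMXL3 cells, at 0 to 1.75 TPM over all libraries, and SNHG21-204 in GFP cells, at 0 to 1.48. For SNHG25 it was SNHG25-201 in both controls, at 0 and 21.1 TPM in WT and 0 and 23.8 in GFP cells, and SNHG25-202 in RBMXL3 cells, at 1.28 and 0. SNHG15, SNHG18 and SNHG27 summed to at most 0.631 TPM in any library.

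The proteins that bind snoRNAs, and other genes that share a feature with the hosts, were read from lists. The 8 core proteins of the box C/D and H/ACA particles held 0 called higher and 4 called lower against GFP, and 0 and 3 against WT, with medians of -0.28 and -0.10. That is 50% and 37.5% called lower, beside 10.4% and 15.3% of all genes. FBL, the methyltransferase of box C/D particles, had 6991 and 7762 normalised reads in WT cells, 9842 and 7430 in GFP cells and 5754 and 5713 in RBMXL3 cells. NOP10, an H/ACA core protein, had 1709 and 1795 in WT cells, 2337 and 1918 in GFP cells and 1363 and 1292 in RBMXL3 cells. In both genes the 2 RBMXL3 libraries were the lowest. FBL fell by 0.57 against GFP (limma adjusted p = 0.00794) and 0.36 against WT (0.0464), and NOP10 by 0.66 (0.00200) and 0.39 (0.0183). Of 13 assembly factors 2 were lower against GFP and 3 lower and 1 higher against WT. In all 15.4% and 30.8% were called, beside 20.9% and 29.9% of all genes. RUVBL1 fell by 0.49 against GFP and 0.43 against WT, and TGS1 fell by 0.33 and 0.39.

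Of 162 protein-coding genes that hold a snoRNA, 150 were tested. Against GFP 6 were called higher and 40 lower, and against WT 9 higher and 36 lower, with medians of -0.19 and -0.14. Called lower were 26.7% and 24%, beside 10.4% and 15.3% of all genes, and called higher 4% and 6%, beside 10.5% and 14.6%. Against both controls 4 were higher and 18 lower (12%, beside 6.86% of all genes). Between the controls 8 were higher and 1 lower. HSPA8, a chaperone gene, had 75852 and 67862 normalised reads in WT cells, 80638 and 70350 in GFP cells and 38108 and 37531 in RBMXL3 cells. ODC1, ATP6V0E1 and EEF1B2 were the other 3 with the greatest change against both controls, all lower. The non-coding hosts had 0 higher and 4 lower against GFP, and 3 higher and 1 lower against WT.

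A list of genes with a TOP start, mostly translation factors, held 14 tested genes. Their starts were taken as known and were not scored here. Against GFP 0 were called higher and 6 lower, and against WT 1 higher and 2 lower, with medians of -0.32 and -0.17. In all 42.9% and 21.4% were called, beside 20.9% and 29.9% of all genes. EEF1B2, on this list as well as among the coding hosts, fell by 0.81 and 0.54, and EIF3H by 0.46 and 0.32. Of 24 NMD factors 2 were higher and 5 lower against GFP, and 0 higher and 8 lower against WT. In all 29.2% and 33.3% were called, beside the same 20.9% and 29.9%. MAGOH and EIF4A3, subunits of the exon junction complex, fell by 0.69 and 0.62 against GFP and by 0.51 and 0.35 against WT. ETF1 and GSPT1, the translation termination factors, fell by 0.38 and 0.33 against GFP and by 0.56 and 0.48 against WT. Of 8 known NMD-cleared messages other than hosts 2 were higher and 0 lower against GFP, and 4 higher and 0 lower against WT. That is 25% and 50% called higher, beside 10.5% and 14.6% of all genes. Those 2 higher against GFP were GADD45B, up by 0.74 in both comparisons, and CARS1, up by 0.47 and 0.61. The median of these 8 was 0.00 against GFP and 0.30 against WT.

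RefSeq promoters, from 250 bases before to 50 after a gene's start, were found for 27 of the 31 hosts. SNHG6, SNHG9, SNHG15 and SNHG25 had none. A start was scored as pyrimidine-rich when a C among the 5 bases before it or the first 5 bases of the transcript was followed by at least 4 bases that were each C or T. By this rule 11 of 27 hosts (40.7%) had such a tract, beside 19.6% of 27305 promoters in all and 76.1% of 67 ribosomal protein genes. The first 15 bases of a GENCODE 29 transcript were found at any place in the window for 19 of the 27 hosts, so the starts need not agree. GAS5 and SNHG1 had no tract at the start that RefSeq gives. DANCR, SNHG19, ZFAS1 and SNHG8, the hosts called lower against GFP by gene reads, each had a tract at the RefSeq start, as did SNHG7 and SNHG32. The other 5 with a tract were SNHG4, SNHG5, SNHG12 and SNHG17, tested and not called, and SNHG18, not tested. Thus 6 of 8 hosts called in a comparison had a tract and 4 of 13 tested hosts not called, a tally made after the calls were known and not tested. SNHG26, SNHG16, SNHG3 and SNHG29 had none. The windows printed here hold 30 bases on each side of the start with the tract in capitals (GRCh38.p14), with DANCR first and, as uncalled hosts with a RefSeq promoter, SNHG29 and SNHG5, the highest such in TPM. SNHG5 was low in the gene table that gave the calls, at 18 to 29 reads per library. SNHG19, ZFAS1 and SNHG8 were added after their values had been seen.
DANCR (chr4:52712364-52712423, plus strand): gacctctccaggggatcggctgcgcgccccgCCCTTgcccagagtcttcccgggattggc
SNHG19 (chr16:2155329-2155388, minus strand): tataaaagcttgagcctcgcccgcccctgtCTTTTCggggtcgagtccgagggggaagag
ZFAS1 (chr20:49278612-49278671, plus strand): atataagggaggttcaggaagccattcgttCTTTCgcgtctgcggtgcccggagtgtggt
SNHG8 (chr4:118278732-118278791, plus strand): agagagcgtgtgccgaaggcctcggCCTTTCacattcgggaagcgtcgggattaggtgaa
SNHG5 (chr6:85678704-85678763, minus strand): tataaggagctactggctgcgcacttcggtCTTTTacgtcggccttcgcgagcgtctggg
SNHG29 (chr17:16438957-16439016, plus strand): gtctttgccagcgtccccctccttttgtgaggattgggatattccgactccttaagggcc
By the RefSeq start, the tract begins at the start itself in SNHG19, ZFAS1 and SNHG5, and at base 2 of the transcript in DANCR. GENCODE 29 begins DANCR-201, which made up at least 96.3% of DANCR TPM in every library, at chr4:52712404. The DANCR tract lies before that start and so outside the transcript measured. In SNHG8 it begins 5 bases before the start. Of the SNHG8 tract only the last base lies in the transcript that RefSeq gives. The leading form SNHG8-203 begins at chr4:118278709 in GENCODE 29, before the window printed here, so the tract is not at its start.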

How the data were processed

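Polyadenylated RNA of 6 TCam-2 libraries was measured. The submitters' processing notes name Trim Galore 0.6.10, STAR 2.7.11a, Salmon 1.10.2, DESeq2 and GRCh38, with no roles; the counting tool and strand setting are not given in the sources used here. The deposited gene values are a normalised signal: 100% of the 145320 nonzero values were whole reads, within 0.01 reads, divided by one size factor per library. The deposited transcript values are TPM, matched to GENCODE 29 genes by ID for 80.0% of transcripts (94.7 to 95.1% of TPM).

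Gene values were divided by 23.9, which puts the mean total on the CPM scale, in place of the CPM the planned test assumed. Genes with at least 1 in at least 2 libraries were fitted with limma 3.58.1 (trend) on log2(value + 1), with 1 coefficient per group over all 6 libraries. Usage was tested with diffSplice on log2(TPM + 1). Alternatives used edgeR 4.0.16 and DESeq2 1.42.0 on recovered reads, other filters and pseudocounts, quantile normalization, summed TPM, a replicate block, and each library left out. The fits were tested on simulated data.

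The members and lists were chosen with earlier results of these data known. All 31 members are accounted for; values by library are given for members called in any comparison and for GAS5, ZFAS1, DANCR and SNHG1, transcripts for members with a usage call or with a leading transcript that differs between groups, and, of each related list, up to 4 genes called against both controls. Promoter sequences are RefSeq's, and transcript sequences GENCODE's. An annotation result is not reported here.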

Additional observations from a re-analysis of the deposited data

How the results depend on the processing

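Over 14 alternatives, the 10 called pairs of host and comparison kept direction and call in 93 of 140 fits. They kept direction without the call in 46 and turned direction in 1. Uncalled pairs were called with their direction kept in 10 of 808 fits. The turned value was ZFAS1 in summed TPM, 0.38 against GFP. Apart from those 10, ZFAS1 against WT, uncalled at -0.06, was called in summed TPM with its direction turned, at 0.91. The cause was not tested. With no filter the hosts called numbered 1 against GFP, 2 against WT and 0 between the controls; more genes were then tested. With summed TPM they numbered 1 against GFP and 0 between the controls. Between the controls the count was 4 under DESeq2 and 0 under edgeR, a mean of at least 5 or quantile normalization. Leaving out 1 library gave 1 to 6 hosts against GFP, 1 to 5 against WT, 0 to 4 between the controls, 1 to 2 against both controls and 0 to 6 with a usage call; a group left with 1 library is assumed to vary like the others. Hosts with a usage call numbered 1 at a pseudocount of 0.1 (SNHG20) and 1 with transcript shares.

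Replicate differences correlated at -0.16 between WT and GFP, 0.03 between WT and RBMXL3 and -0.09 between GFP and RBMXL3 over 14292 genes. With 2 libraries per group, this cannot show whether replicate numbers pair samples. Of the 23 hosts, 18 were lower in replicate 1 in WT cells, 18 in GFP cells and 4 in RBMXL3 cells. With the replicate block 0 hosts were called between the controls in place of 2. The block also ended the calls against WT of SNHG32 (limma adjusted p = 0.0598) and of ZFAS1 usage (0.0969), and no other host's call. Low hosts are limited by depth: a count of 0 allows 3 reads, 2.52 to 3.86 normalised reads by library, counting error only.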

Other observations

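Transcripts of SNHG6 and SNHG8 were looked at after their values had been seen. SNHG6-204, annotated as a retained-intron form, made up 1.19% and 2.12% of SNHG6 TPM in WT cells, 0.695% and 2.57% in GFP cells and 6.34% and 7.03% in RBMXL3 cells. SNHG8-201, a form of 672 bases, was at 5.45 and 16.0 TPM in WT cells, 14.1 and 14.9 in GFP cells and 32.9 and 22.4 in RBMXL3 cells, while the 327-base SNHG8-203 was at 77.5 and 95.3, 84.0 and 129, and 44.9 and 48.8 in the same order. In both genes the 2 RBMXL3 libraries stood apart from all 4 control libraries. Neither gene passed the usage test, with adjusted Simes p of 0.122 for SNHG6 and 0.195 for SNHG8 against GFP, and 0.256 and 0.198 against WT. SNHG8 was called without GFP replicate 1, without WT replicate 2 or with a mean TPM of at least 5, and SNHG6 without GFP replicate 1 or replicate 2. SNHG3 TPM annotated as retained intron was 37.8% ± 4.16 in WT cells, 31.8% ± 5.998 in GFP cells and 48.1% ± 1.14 in RBMXL3 cells (SD, n = 2). This summed share was not tested. Its main form, SNHG3-202, was in the usage test, where SNHG3 was not called. There diffSplice gave adjusted Simes p of 0.287 against GFP and 0.586 against WT.

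SNHG25 was at 1.34 and 24.3 TPM in WT cells, 5.03 and 27.5 in GFP cells and 1.28 and 0 in RBMXL3 cells, so replicates differed as much as groups. Its gene row held 1 to 11 reads per library.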
